A study of Mus musculus with 12 samples.

Results

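Chemokines are small secreted or membrane-tethered proteins that direct leukocyte movement, and they are grouped as CC, CXC and CX3C by the spacing of conserved cysteines. They bind heparan sulfate on cell surfaces and signal through G protein-coupled receptors that are carried mainly by leukocytes. Atypical receptors bind the same ligands without G protein signalling and mostly remove them from the tissue. In arteries, chemokines from endothelial cells, fibroblasts and resident macrophages are known for recruiting monocytes, neutrophils and lymphocytes to the wall.

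The genes described here are the protein-coding genes of the deposited table whose symbols name a CC or CXC chemokine, a CC or CXC receptor, or the CX3C pair Cx3cl1 and Cx3cr1. The symbols selected 53 of 35275 genes, 36 ligands and 17 receptors, and earlier results of these data were known when the members were chosen. RNA was sequenced from carotid arteries of 10-week-old Poldip2-/- mice and littermate controls, both C57BL/6 on standard chow. Poldip2-/- mice carried a germline deletion of exon 4 of Poldip2 in all tissues. This allele came from a floxed line made from 1 embryonic stem cell clone, by a cross with EIIa Cre, which is active in early embryos, and a backcross to C57BL/6J. Endothelial-enriched RNA was flushed from the lumen of the right and left carotid arteries with Qiazol, a lysis reagent, and the leftover wall (media and adventitia) is called the medial layer. The labels list 2 endothelial and 4 medial samples of each genotype, whereas the design text and the methods give 4 mice per group, so the number behind the endothelial values is uncertain. Whether the controls were all wild type, and whether RNA of several animals was pooled, is not given in the sources used here.

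Levels are FPKM, sequenced fragments counted per kilobase of a gene's transcript and scaled to the depth of the library, so that levels of different genes are comparable per length. The table gives 1 value of the authors per group. These values carry no replicate error, no test was made, and the depth of the libraries is unknown. A difference is given as the fold between the FPKM values, or as the log2 ratio after adding 1 to each FPKM, which understates the differences of low genes. A gene was read in a comparison when its mean over both groups was at least 1 FPKM, and called higher or lower at a log2 ratio of at least 1 in either direction.

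The targeted gene Poldip2 was listed at 21.1 and 8.27 FPKM in the endothelial layer of control and Poldip2-/- mice and at 35.9 and 10.3 FPKM in the medial layer. Markers matched the labelled layers. The 5 endothelial markers summed to 3121 and 3322 FPKM in the endothelial layer and to 118 and 65.1 FPKM in the medial layer. The 6 smooth muscle markers summed to 157 and 457 FPKM in the endothelial layer and to 5313 and 20316 FPKM in the medial layer. Both control groups differed from the Poldip2-/- groups at low values, the medial controls most. In medial controls, 93.2% of 1102 olfactory receptor genes, which arteries are taken not to use, were listed above 0, against 7.26% in the medial Poldip2-/- group. In the endothelial layer the shares were 69.8% in controls and 27.0% in Poldip2-/-. The 95th percentile of these receptor genes was 1.52 FPKM in medial controls, 0.0137 FPKM in medial Poldip2-/-, 0.312 FPKM in endothelial controls and 0.0666 FPKM in endothelial Poldip2-/-.

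The promoters of the neutrophil chemokines Cxcl1, Cxcl2 and Cxcl3 and of the interferon-inducible chemokine Cxcl10 are shown first. All are among the genes with a match to the NF-kB motif, listed below. Cxcl1, Cxcl2 and Cxcl10 were at higher listed levels in the endothelial than in the medial Poldip2-/- group, Cxcl10 under 1 FPKM in both. Cxcl3 was near 0 throughout. Cxcl16 (50.8 and 7.36 FPKM) and Cx3cl1 (41.2 and 9.75 FPKM) were likewise higher in the endothelial Poldip2-/- group and are not among the genes with a match. NF-kB is the transcription factor that inflammatory signals such as TNF activate, and interferon response elements are bound by factors downstream of interferon. Each run gives the 250 bases before the start in RefSeq's annotation of GRCm38.p6, written 5′ to 3′ on the strand of the gene. Cxcl1 lies at chr5:90890995-90891244 on the plus strand, Cxcl2 at chr5:90903649-90903898 on the plus strand, Cxcl3 at chr5:90785851-90786100 on the plus strand and Cxcl10 at chr5:92348890-92349139 on the minus strand. Capitals mark matches to the NF-kB motif, which was searched as GGGA and TTCC with any 2 bases between them, and in Cxcl10 also an earlier match to the interferon response element, searched as GAAA and GAAA with any 2 bases between them.
Cxcl1: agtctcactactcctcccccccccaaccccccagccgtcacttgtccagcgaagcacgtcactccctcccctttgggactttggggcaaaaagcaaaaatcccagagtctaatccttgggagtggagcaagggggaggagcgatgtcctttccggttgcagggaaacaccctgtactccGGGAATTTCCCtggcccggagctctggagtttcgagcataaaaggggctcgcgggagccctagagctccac
Cxcl2: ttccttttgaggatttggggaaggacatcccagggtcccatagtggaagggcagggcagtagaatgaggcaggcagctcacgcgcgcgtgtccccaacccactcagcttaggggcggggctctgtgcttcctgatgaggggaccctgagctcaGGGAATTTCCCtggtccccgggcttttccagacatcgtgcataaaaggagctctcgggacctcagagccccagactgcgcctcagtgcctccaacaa
Cxcl3: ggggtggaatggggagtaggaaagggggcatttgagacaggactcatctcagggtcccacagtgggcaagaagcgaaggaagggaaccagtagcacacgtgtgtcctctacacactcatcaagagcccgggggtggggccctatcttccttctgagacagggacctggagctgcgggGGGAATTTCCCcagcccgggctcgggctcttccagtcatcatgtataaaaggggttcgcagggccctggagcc
Cxcl10: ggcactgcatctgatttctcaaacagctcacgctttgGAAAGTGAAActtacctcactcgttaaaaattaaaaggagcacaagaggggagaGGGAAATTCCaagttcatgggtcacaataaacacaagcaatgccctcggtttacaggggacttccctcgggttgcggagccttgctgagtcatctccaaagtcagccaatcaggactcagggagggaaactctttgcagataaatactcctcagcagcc

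In Cxcl1, Cxcl2 and Cxcl3 the NF-kB match is the same 11 bases, in which the motif reads on both strands. It ends 61 bases before the start in Cxcl1, 87 in Cxcl2 and 63 in Cxcl3. Searched on both strands, the NF-kB motif was found in 397 of 32851 promoters of this length (1.21%). The 39 chemokine and receptor genes with a promoter in the table had 46 promoters, and 6 of these held the motif (Ccl1, Ccr3, Cxcl1, Cxcl2, Cxcl3 and Cxcl10). The interferon response element was found in 978 of all promoters (2.98%) and in 3 of the 46 (Ccl19, Cxcl10 and Cxcl14). Promoters with the same 11 bases stood before genes at very different levels, since endothelial Cxcl1 was at 39.7 FPKM in controls, Cxcl2 at 0.438 FPKM and Cxcl3 at 0.0849 FPKM.

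Of the 53 genes, 27 reached 1 FPKM in at least 1 group, 22 ligands and 5 receptors. The medial control group held the highest value for 43 of the 53 (81.1%), and for 59.6% of all genes of the table. Ligand FPKM summed to 221 in the endothelial controls, 211 in the endothelial Poldip2-/- group, 967 in the medial controls and 261 in the medial Poldip2-/- group. Poldip2-/- arteries thus had a ligand sum 3.71-fold lower than controls in the medial layer and 1.05-fold lower in the endothelial layer. Receptor FPKM summed to 3.17, 2.35, 16.8 and 4.67 in the same order.

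**Figure D1:**
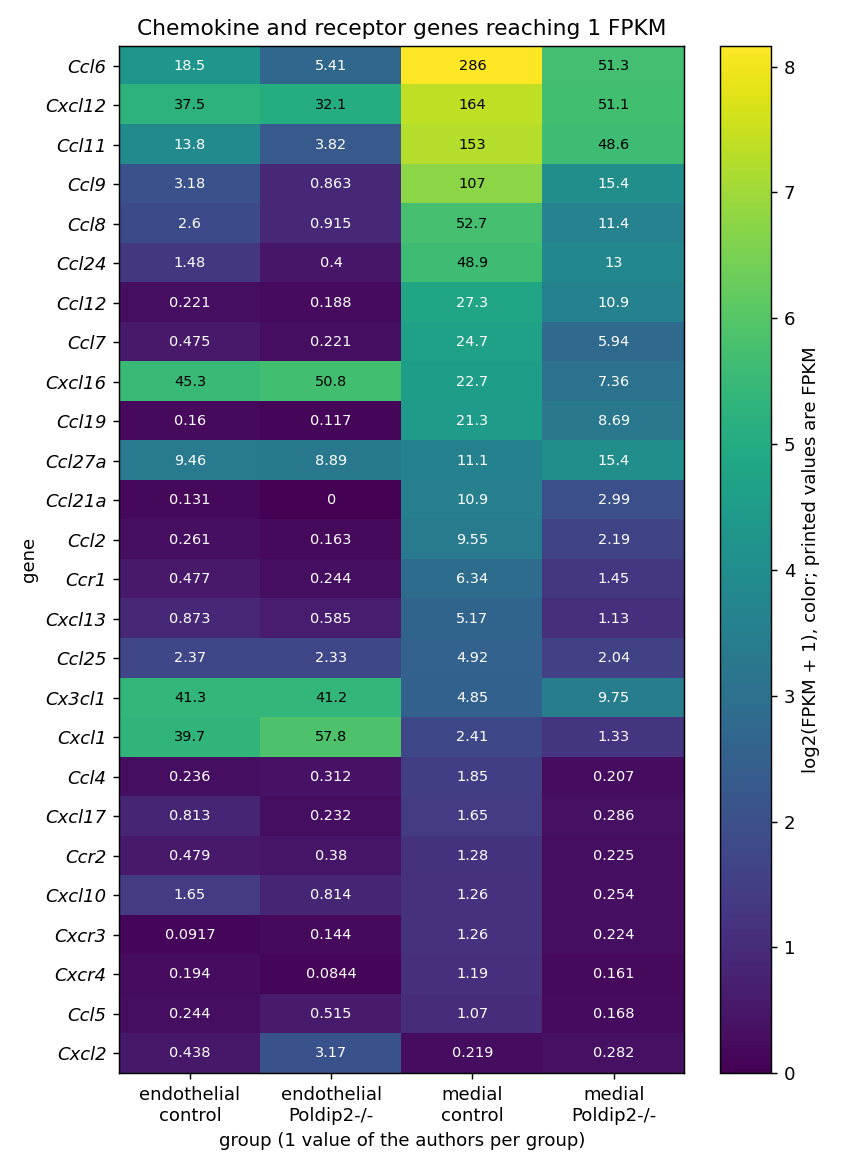
FPKM of 26 genes that reached 1 FPKM, with 1 value of the authors per group printed in each cell and colour giving log2(FPKM + 1). CC ligands such as Ccl6 (286 FPKM) and Ccl11 (153 FPKM) were highest in medial controls, while Cx3cl1 (41.3 FPKM) and Cxcl1 (39.7 FPKM in controls) were higher in the endothelial layer.

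The medial layer of controls was led by the CC ligands Ccl6 (29.6% of ligand FPKM), Ccl11 (15.8%) and Ccl9 (11.1%) and the CXC ligand Cxcl12 (17.0%). In the medial layer of Poldip2-/- mice, 15 of the 19 chemokine and receptor genes read were called lower and 0 higher, where 14.3% of all 13082 genes read were called lower and 7.22% higher. The median log2 ratio of the 19 genes was -1.57, beside -0.17 over all genes read. With the median of all genes set to 0, the median of the 19 was -1.41. Of all genes called in the medial layer, 33.5% were higher, which became 45.2% with the median set to 0 and 50.9% when ratios were centred within 20 bins of gene length. All but Ccl4 of the 19 were at 1 FPKM or more in both groups. Over all 53 genes, most of them low, 46 were listed lower in medial Poldip2-/- (86.8%), 5 higher and 2 equal, where 72.3% of all genes of the table were listed lower.

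Gene length moved with the medial difference. Over all genes read, the median log2 ratio was -1.09 at lengths up to 500 bp and 0.43 at lengths above 8000 bp, and the ligands that reached 1 FPKM are short, with a median of 1068 bp beside 2876 bp for all genes read. After centring within length bins, 12 of the 15 genes were still called lower (Ccl12, Ccl19 and Ccl4 were not) and the median of the 19 was -1.12. In bulk RNA, fewer cells of a type and less RNA per cell cannot be told apart.

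The lowest medial log2 ratios after adding 1 were those of Ccl9 and Ccl6, both ligands of Ccr1. Ccl6, a chemokine of mouse macrophages, was at 286 FPKM in medial controls and 51.3 FPKM in medial Poldip2-/-, 5.57-fold lower (log2 ratio -2.46). Ccl9, which in mice attracts Ccr1-bearing myeloid cells, was at 107 and 15.4 FPKM, 6.96-fold lower (log2 ratio -2.72). With length centring these log2 ratios were -2.09 and -2.59. In the endothelial layer the Ccl6 level was 18.5 FPKM for controls and 5.41 FPKM for Poldip2-/-, and Ccl9 at 3.18 and 0.863 FPKM. Both were thus 3.42- and 3.69-fold lower there, at levels far under those of the medial layer. Ccl6 and Ccl9 lie side by side on chromosome 11, with 9.25 kb between them. Their neighbours in the same array of 139 kb were low. Ccl5, an attractant of T cells and monocytes, was at 1.07 FPKM in medial controls and 0.168 FPKM in medial Poldip2-/-. Ccl4, an attractant of monocytes and T cells, was at 1.85 and 0.207 FPKM, with nothing added the largest fold among the 15 genes called lower (8.95). That fold is uncertain, because Ccl4 was read only through the controls, at a value little above the 1.52 FPKM of olfactory receptor genes there. Ccl3, which attracts similar cells, was listed at 0.441 and 0.427 FPKM. Its control value lies under that 1.52 FPKM, so whether it differed cannot be read.

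The second array on chromosome 11 holds the monocyte attractants Ccl2, Ccl7 and Ccl12, the eotaxin Ccl11 and Ccl8, with Ccl1 at its right end. Ccl11, which attracts eosinophils through Ccr3 and is made by fibroblasts, was at 153 FPKM in medial controls and 48.6 FPKM in medial Poldip2-/-, 3.14-fold lower (log2 ratio -1.63). Ccl8, in mice a ligand of Ccr8, was at 52.7 and 11.4 FPKM, 4.65-fold lower. Ccl7 was at 24.7 and 5.94 FPKM, 4.15-fold lower. All 3 were thus more than 3-fold lower. Ccl12, a Ccr2 ligand found in mice, was at 27.3 and 10.9 FPKM, 2.51-fold lower. Ccl2, the best known ligand of Ccr2, was at 9.55 and 2.19 FPKM, 4.35-fold lower. The 5 genes from Ccl2 to Ccl8 span 81.2 kb, and Ccl1 beyond them was listed at 0.173 and 0 FPKM. Ccl2 overlaps Gm17268 on the other strand, which was at 3.78 and 0 FPKM in the medial layer, and the kit's strand setting is not given in the sources used here, so reads of overlapping genes cannot be told apart.

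**Figure D2:**
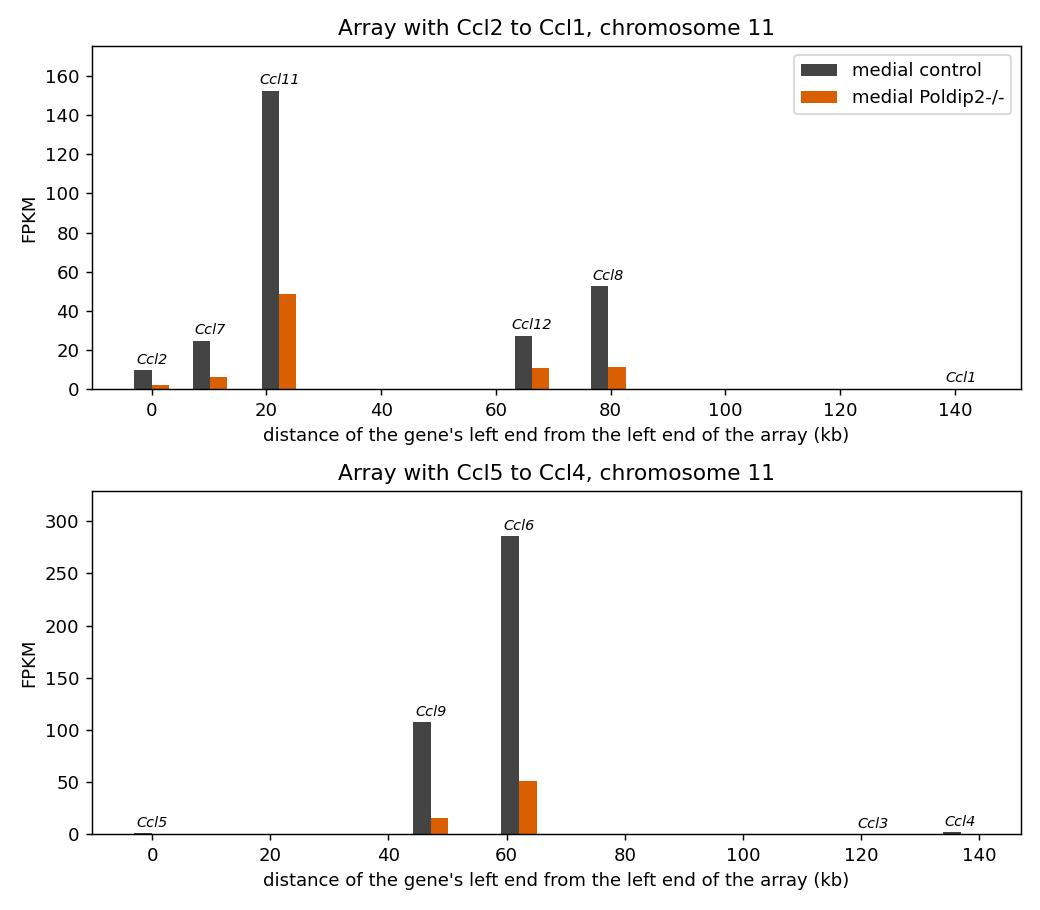
FPKM in the medial layer of controls (dark bars) and Poldip2-/- mice (orange bars) for the genes of both CC arrays on chromosome 11, placed by the distance of each gene's left end from the left end of its array in kb. Ccl11 (153 and 48.6 FPKM) and Ccl6 (286 and 51.3 FPKM) stand highest, and Ccl1, Ccl3, Ccl4 and Ccl5 lie near 0 on this axis.

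The other eotaxin, Ccl24, lies on chromosome 5. It was at 48.9 FPKM in medial controls and 13.0 FPKM in medial Poldip2-/-, 3.76-fold lower (log2 ratio -1.83). In the endothelial layer it was at 1.48 and 0.400 FPKM. Their receptor Ccr3 was at most 0.203 FPKM in any group.

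Among homeostatic chemokines, Cxcl12, the Cxcr4 ligand that retains leukocytes and progenitors in tissues, was at 164 FPKM in medial controls and 51.1 FPKM in medial Poldip2-/-, 3.22-fold lower (log2 ratio -1.67). In the endothelial layer Cxcl12 was at 37.5 and 32.1 FPKM, a log2 ratio of -0.21. Its long transcript puts it among genes with a slightly positive median difference, and its length-centred medial log2 ratio was -1.78. Cxcl13, which attracts B cells, was at 5.17 and 1.13 FPKM in the medial layer, 4.59-fold lower. Ccl19, a ligand of Ccr7 on dendritic cells and T cells, was at 21.3 and 8.69 FPKM in the medial layer and at most 0.160 FPKM in the endothelial layer. Ccl21a, the Ccr7 ligand of lymphatic endothelium, was at 10.9 and 2.99 FPKM in the medial layer, and 0.131 and 0 FPKM in the endothelial layer. Ccr7 itself was at 0.535 FPKM in medial controls and 0.0827 FPKM in medial Poldip2-/-.

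Ccl19, Ccl21a and Ccl27a have near-identical copies in the annotation, so how the authors' counting split reads among copies makes their levels uncertain. Ccl19 is 98.9% identical over 707 bases to Gm2564, and its unprocessed pseudogene Gm12407 was itself listed at 29.0 FPKM in medial controls and 12.1 FPKM in medial Poldip2-/-. Ccl21a is 99.3% identical over 870 bases to Gm21541, and Ccl27a is 99.3% identical over 425 bases to Ccl27b, listed at 0 FPKM in every group. Ccl27a is also 99.4% identical over 464 bases to Gm13306. That copy was listed at 3.43 FPKM in medial controls and 2.71 FPKM in medial Poldip2-/-.

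Of the 4 genes read in the medial layer and not called, 2 were listed higher in Poldip2-/-. Cx3cl1, the membrane-bound ligand of Cx3cr1 that endothelial cells display, was at 4.85 FPKM in medial controls and 9.75 FPKM in medial Poldip2-/-, 2.01-fold higher. Its log2 ratio was 0.88 and passed 1 when both groups were scaled to the same FPKM sum (1.02) or the median gene was set to 0 (1.04). Ccl27a, which attracts T cells to skin, was at 11.1 and 15.4 FPKM, a log2 ratio of 0.44. Ccl27a overlaps Il11ra1, which was at 375 and 175 FPKM. Ccl25, which attracts thymocytes and gut T cells, was at 4.92 and 2.04 FPKM (log2 ratio -0.96), and Cxcl1 at 2.41 and 1.33 FPKM (log2 ratio -0.55).

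**Figure D3:**
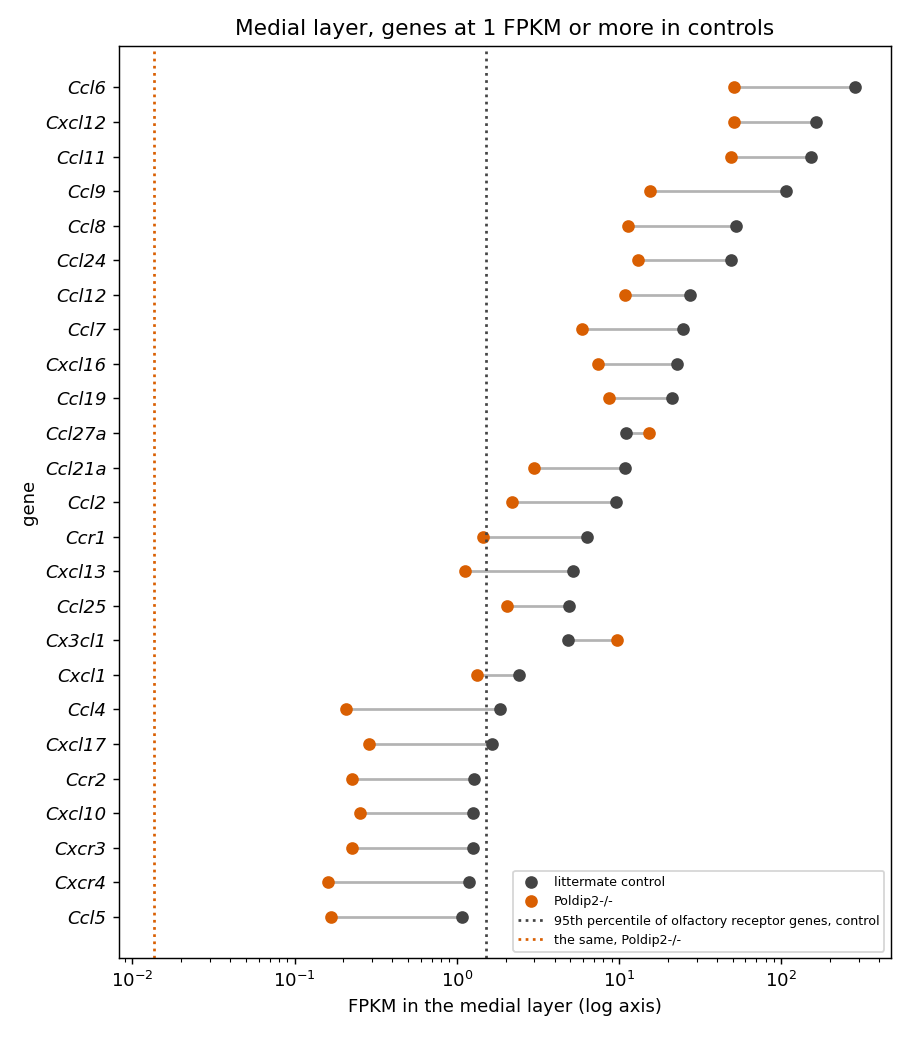
Medial-layer FPKM on a log axis of 25 genes at 1 FPKM or more in medial controls, with 1 dark point for controls and 1 orange point for Poldip2-/- per gene. Dotted lines mark the 95th percentile of olfactory receptor genes in each group (1.52 and 0.0137 FPKM); of the 25 genes, Ccl27a and Cx3cl1 are the ones with the orange point on the right.

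The endothelial layer had another set of leading ligands. In controls these were Cxcl16 (20.4% of ligand FPKM), Cx3cl1 (18.6%), Cxcl1 (17.9%) and Cxcl12 (16.9%), and in Poldip2-/- mice Cxcl1 (27.3%), Cxcl16 (24.0%), Cx3cl1 (19.5%) and Cxcl12 (15.2%). Between genotypes, 1 of the 12 chemokine and receptor genes read was called higher (Cxcl2) and 3 lower (Ccl6, Ccl9 and Ccl11), where 0.434% of all 11514 genes read were called higher and 1.44% lower. The median log2 ratio of the 12 genes was -0.15, beside 0.05 over all genes read. Of the 12, Ccl8, Ccl9, Cxcl2 and Cxcl10 were under 1 FPKM in 1 of the groups and were read only through the other, so a difference between the groups was built into their being read.

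Cxcl2, a ligand of Cxcr2 that attracts neutrophils, was at 0.438 FPKM in endothelial controls and 3.17 FPKM in endothelial Poldip2-/-, 7.24-fold higher (log2 ratio 1.54). In the medial layer it was at 0.219 and 0.282 FPKM. With a minimum mean of 5 FPKM it was no longer read. Cxcl1, the neighbouring gene 10.8 kb away and also a Cxcr2 ligand, was at 39.7 FPKM in endothelial controls and 57.8 FPKM in endothelial Poldip2-/-, 1.46-fold higher (log2 ratio 0.53), under the threshold. Both were highest in the same group. Ccl11 was at 13.8 and 3.82 FPKM in the endothelial layer, 3.60-fold lower (log2 ratio -1.61).

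Cx3cl1 was listed at nearly the same level in both endothelial groups, 41.3 and 41.2 FPKM. Cxcl16, a membrane-bound ligand of Cxcr6 that also takes up oxidised lipoprotein, was at 45.3 and 50.8 FPKM, a log2 ratio of 0.16. In the medial layer the Cxcl16 level was 22.7 FPKM for controls and 7.36 FPKM for Poldip2-/-, 3.08-fold lower (log2 ratio -1.50). Cxcl16 shares 552 identical bases with Zmynd15 on the other strand, which was at 8.95 and 10.3 FPKM in the endothelial layer and 0.739 and 0.563 FPKM in the medial layer. Cxcl10, the interferon-inducible ligand of Cxcr3, was at 1.65 and 0.814 FPKM in the endothelial layer (log2 ratio -0.54) and at 1.26 and 0.254 FPKM in the medial layer. Cxcl10 overlaps Art3, which was at 12.4 FPKM in medial controls and 44.9 FPKM in medial Poldip2-/-. Cxcl17, a mucosal chemokine, reached 1 FPKM in medial controls alone, at 1.65 FPKM, and was at 0.286 FPKM in medial Poldip2-/-.

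**Figure D4:**
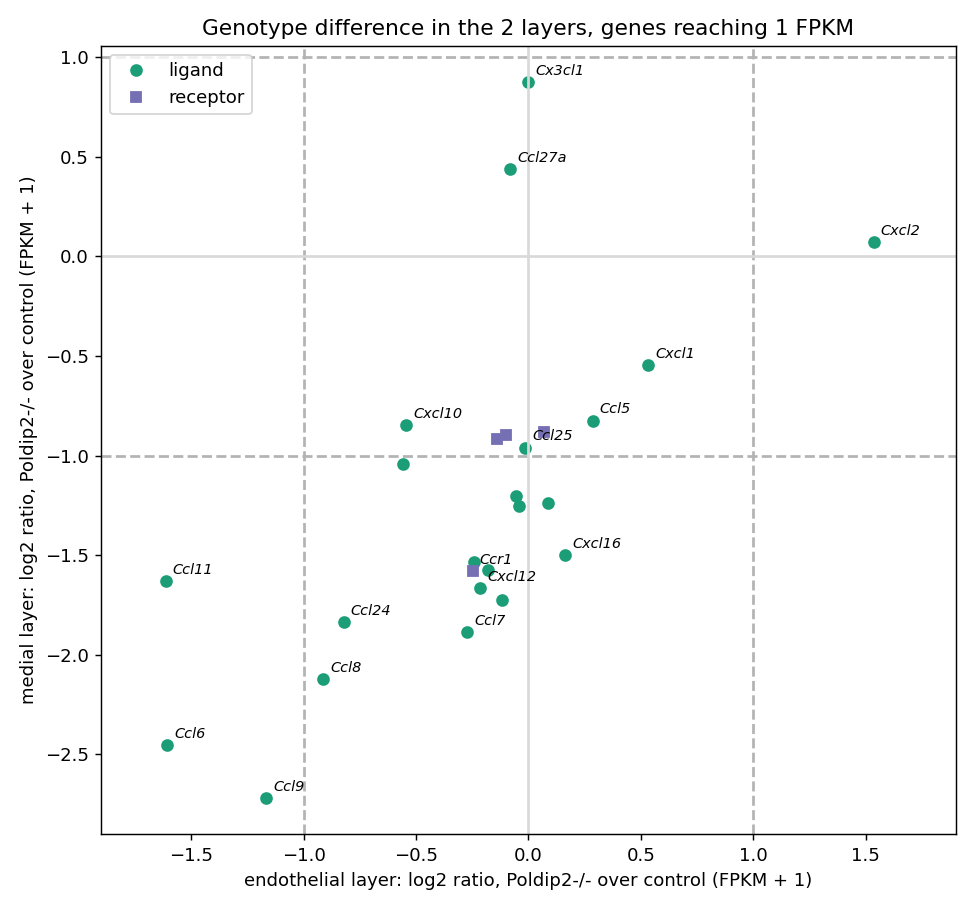
Log2 ratio of Poldip2-/- over control, after adding 1 to each FPKM, in the endothelial layer (horizontal) and the medial layer (vertical) for 26 genes reaching 1 FPKM; circles are ligands, squares are receptors, and dashed lines mark log2 ratios of 1 and -1. Ccl6, Ccl9 and Ccl11 lie beyond -1 on both axes, Cxcl16 (0.16 and -1.50) and Cxcl12 (-0.21 and -1.67) on the medial axis alone, and Cxcl2 beyond 1 on the endothelial axis.

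Of the 10 genes read in both genotype comparisons, 5 had a medial log2 ratio lower than the endothelial one by at least 1 (Ccl8, Ccl9, Cxcl1, Cxcl12 and Cxcl16) and 0 had one higher by as much, where 8.75% of all 10920 genes read in both were lower and 7.23% higher. Ccl8 and Ccl9 were under 1 FPKM in endothelial Poldip2-/-, and with a pseudocount of 0.1 Ccl25 took the place of Ccl8. The median of this difference was -1.01 for the 10 genes and -0.18 for all. The difference was -1.66 for Cxcl16, -1.55 for Ccl9, -1.45 for Cxcl12 and 0.88 for Cx3cl1. For Ccl11 it was -0.01, so its fold was about the same in both layers. With length centring, 3 genes remained lower in this way (Ccl9, Cxcl12 and Cxcl16) and 2 were higher (Ccl27a and Cx3cl1).

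Between layers of control mice, 14 of the 21 genes read were called higher in the medial layer and 2 lower (Cx3cl1 and Cxcl1), where 20.2% of all 13354 genes read were called higher and 12.1% lower. Of the 21, 9 were under 1 FPKM in the endothelial layer and were read only through the medial layer, so their difference was built in, and 8 of the 16 called were at 1 FPKM or more in both layers (Ccl6, Ccl8, Ccl9, Ccl11, Ccl24, Cxcl12, Cx3cl1 and Cxcl1). The share of higher calls among all genes called was 62.6%, and 46.7% with both groups scaled to the same FPKM sum. Cx3cl1 was 8.50-fold and Cxcl1 16.5-fold lower in the medial layer of controls. Ccl9 was 33.7-fold and Ccl6 15.4-fold higher in the medial layer. In Poldip2-/- mice, 10 of the 17 genes read were called higher in the medial layer and 4 lower (Cx3cl1, Cxcl1, Cxcl2 and Cxcl16), where 14.1% of all 12140 genes read were called higher and 13.3% lower. Of the 17, 9 were under 1 FPKM in 1 layer, and 5 of the 14 called were at 1 FPKM or more in both (Ccl6, Ccl11, Cx3cl1, Cxcl1 and Cxcl16). These comparisons share their groups with the genotype comparisons. Cxcl12 was 4.39-fold higher in the medial than the endothelial layer of controls and 1.59-fold higher in Poldip2-/- mice.

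Receptor levels were low throughout. No receptor exceeded 0.479 FPKM in the endothelial layer. Ccr1, the receptor of Ccl6 and Ccl9 on monocytes and macrophages, was the highest, at 6.34 FPKM in medial controls and 1.45 FPKM in medial Poldip2-/-, 4.36-fold lower (log2 ratio -1.58). It was the only receptor read between the genotypes. Ccr2, which brings monocytes to Ccl2 and Ccl7, was at 1.28 and 0.225 FPKM in the medial layer, Cxcr3, on activated T cells, at 1.26 and 0.224 FPKM, and Cxcr4 at 1.19 and 0.161 FPKM. The control values of Ccr2, Cxcr3 and Cxcr4 lie under the 1.52 FPKM that marks the 95th percentile of olfactory receptor genes in that group, while the values in medial Poldip2-/- lie above its 0.0137 FPKM, so these differences cannot be read. The same holds in the medial layer for Ccl3, Ccl5, Cxcl2, Cxcl10, Ccr7 and Cx3cr1. Cx3cr1, the receptor of Cx3cl1 on resident macrophages and monocytes, was at 0.590 and 0.748 FPKM in the medial layer and 0.147 and 0.423 FPKM in the endothelial layer, and its locus overlaps several other genes.

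The other 26 genes, 14 ligands and 12 receptors, were under 1 FPKM in every group, with 0.888 FPKM for Cxcl9 in medial controls as the highest value. For 22 of the 26 the highest value was in medial controls, and 6 were at 0 in medial Poldip2-/-. They include Cxcl5 and Cxcl3 of the neutrophil array, the T cell attractants Ccl17 and Ccl22, and the neutrophil receptors Cxcr1 and Cxcr2. Cxcr2, the receptor of Cxcl1 and Cxcl2, was at most 0.126 FPKM. Of all 53 genes, 15 were above the 95th percentile of olfactory receptor genes in all 4 groups and 9 in none. By group, 19 were above it in endothelial controls, 38 in endothelial Poldip2-/-, 20 in medial controls and 42 in medial Poldip2-/-.

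Of 12 related chemokines and atypical receptors, 10 were read in the medial layer and 4 were called lower, beside 14.3% of all genes read. These 4 were Ackr2, Ackr3, Pf4 and Ppbp. Ppbp, at 3.21 and 0.470 FPKM in the medial layer, was read only through the controls. The median log2 ratio of the 10 was -0.85, beside -0.17 over all genes read. In the endothelial layer 7 were read and 1 was called lower (Pf4), where 1.44% of all genes read were called lower. Ackr3, which removes Cxcl12, was at 363 FPKM in endothelial controls and 351 FPKM in endothelial Poldip2-/-, and at 207 and 68.7 FPKM in the medial layer, 3.02-fold lower. Ackr3 thus stood beside its ligand Cxcl12, which was 3.22-fold lower in the medial layer, and above Cxcr4 in every group. Ackr2, which removes inflammatory CC chemokines, was at 20.7 and 8.14 FPKM in the medial layer, and Ackr1, which binds chemokines on venules and red blood cells, at 2.03 and 0.714 FPKM. Ackr4, which removes Ccl19, Ccl21a and Ccl25, was at 17.6 and 22.2 FPKM in the endothelial layer and 1.61 and 0.423 FPKM in the medial layer. Ackr1 and Ackr4 were read in the medial layer only through the controls. The medial control value of Ackr4 was little above the 1.52 FPKM of olfactory receptor genes there, so its difference is uncertain. Ccrl2, which binds chemerin, was at 20.4 and 28.7 FPKM in the endothelial layer. Pf4, a CXC chemokine of platelets and macrophages, was at 674 and 181 FPKM in the medial layer, 3.72-fold lower.

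Of 20 genes of chemokine receptor signalling, 17 were read in the medial layer and 4 were called lower, beside 14.3% of all genes read. These 4 were Dock2, Rac2, Vav1 and Pik3r5, which act in leukocytes. Dock2 (5.28 and 0.992 FPKM) and Pik3r5 (2.87 and 0.782 FPKM) were read only through the controls. The median log2 ratio of the 17 was -0.71. Among widely expressed genes that were not called, the G protein subunits Gnai2, Gnai3 and Gnb1 were at 261 and 303 FPKM, 76.0 and 44.6 FPKM, and 120 and 71.3 FPKM, and the GTPase Rac1 at 243 and 193 FPKM. In the endothelial layer 11 were read and 0 called. Of 17 NF-kB subunits and feedback genes, 0 of 14 read were called in the endothelial layer, beside 0.434% of all genes called higher and 1.44% lower. There Nfkbia was at 119 and 116 FPKM and Icam1 at 171 and 199 FPKM. In the medial layer 1 of 13 was called lower, Birc3 at 25.9 and 9.52 FPKM, beside 14.3% of all genes read. Of 14 interferon-induced genes, 8 of 13 read were called lower in the medial layer, beside the same 14.3%. Among them Irf7, a factor that drives interferon genes, was at 16.6 and 2.88 FPKM. In the endothelial layer 0 of 13 were called, beside the small shares given above for all genes.

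Markers of several cell types moved with the medial difference in the chemokines. Of all genes read between genotypes in the medial layer, 14.3% were called lower and 7.22% higher. Of 15 macrophage and monocyte markers in the table, 14 were read and 12 were called lower in medial Poldip2-/-, with a sum of 4835 FPKM in controls and 1106 FPKM in Poldip2-/-, 4.37-fold lower, beside 3.71-fold for the ligands. Lyz2, lysozyme of myeloid cells, was at 2500 and 461 FPKM and made up most of the control sum, so the fold of the sum rests largely on it. Ptprc, the pan-leukocyte antigen, was at 5.02 and 1.68 FPKM. The markers read and not called were Csf1r at 84.7 and 42.6 FPKM and Mrc1 at 19.9 and 12.1 FPKM. Lymphocyte markers summed to 17.6 and 1.89 FPKM, and the 4 read and called lower (Cd2, Cd79a, Cd79b and Ms4a1) were read only through the controls. The other 9 lymphocyte markers were under the 1.52 FPKM of olfactory receptor genes in medial controls, so their differences cannot be read. Neutrophil and mast cell markers summed to 90.2 and 21.0 FPKM, with 6 of 7 lower. Fat cell markers summed to 2262 and 474 FPKM, with 6 of 6 lower. Among these called markers, S100a9 (8.24 and 0.877 FPKM) and Lep (4.22 and 0.839 FPKM) were read only through the controls.

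Fibroblast markers summed to 12234 and 5624 FPKM in the medial layer, with 8 of 10 lower, and the exceptions Col1a1 and Col3a1 at 281 and 455 FPKM and at 1384 and 1417 FPKM. Smooth muscle markers were called higher, 6 of 6, beside 7.22% of all genes read. Of all genes read, 14.3% were called lower in medial Poldip2-/-. Beside that share, the counts called lower were 1 of 3 for dendritic cells and 2 of 4 for platelets (the chemokines Pf4 and Ppbp given above). They were 3 of 5 for red blood cells and 1 of 5 for endothelial cells, the latter near that share. For lymphatic endothelium, a list that holds Ccl21a itself, the count was 2 of 2. In the endothelial layer, fibroblast markers summed to 681 FPKM in controls and 306 FPKM in Poldip2-/-, with 9 of 10 called lower beside the lower Ccl6, Ccl9 and Ccl11. Of all genes read in that layer, 1.44% were called lower and 0.434% higher. Macrophage markers summed to 160 and 98.6 FPKM there, with 0 of 11 called, and 3 of 5 smooth muscle markers read there were called higher. The part of these cell types in the chemokine differences was not tested.

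**Figure D5:**
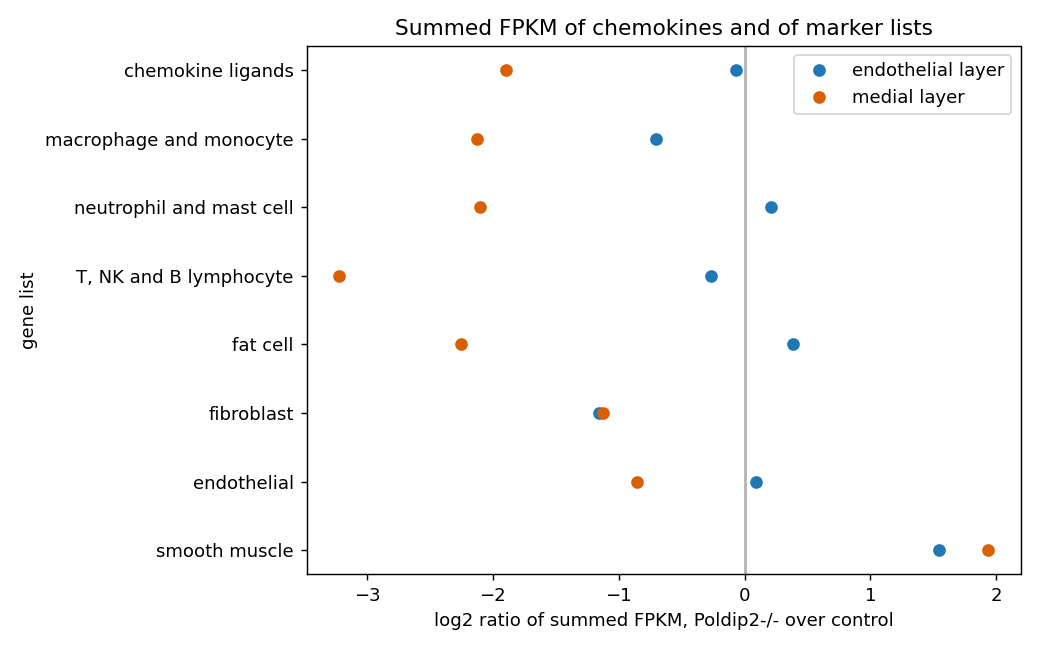
Log2 ratio of summed FPKM, Poldip2-/- over control with nothing added, for the 36 ligands and 7 marker lists in the endothelial layer (blue) and the medial layer (orange), with 1 point per list and layer and no replicate error. In the medial layer the ligands (967 and 261 FPKM) lie on the same side of 0 as the leukocyte, fat cell, fibroblast and endothelial lists, and smooth muscle lies on the other side. Most lymphocyte markers were under the 1.52 FPKM of olfactory receptor genes in medial controls, so the medial point of that list is uncertain.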

How the data were processed

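RNA of 12 samples in 4 groups was sequenced by poly-T capture and paired reads. The methods state alignment to mm9 with TopHat on a Bowtie index. The authors deposited FPKM per gene and group, and how replicates were combined is not given in the sources used here. The submitters' processing notes name, besides TopHat, edgeR 3.16.5, DESeq2, STAR 2.5, HTSeq 0.6.1 and STAR-Fusion. The table's positions overlap those of GRCm38 (GENCODE M21) for 34434 of 34490 matched genes (99.8%). Another 24 columns, of single animals, were not used because the labels do not tie them to genotypes, nor were 36 columns with the fold changes, p-values and group means of 6 comparisons by the authors.

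The pseudocount was 1 FPKM, the minimum mean 1 FPKM and the called log2 ratio 1. Members reaching 1 FPKM in a group are named, except 1 that is counted but not reported here. The members and the 15 gene lists were chosen with earlier results of these data known. Near-identical copies share at least 95% over 250 bases of transcript (blastn 2.17.0). Promoters came from RefSeq (GRCm38.p6). Python 3.11.15, numpy 2.4.6, pandas 2.3.3 and matplotlib 3.10.9 were used, and the computation was tested on simulated data. Alternatives were another pseudocount (0.1), minimum (none or 5 FPKM), threshold (0.58), scaling (equal FPKM sum, median at 0), centring in 20 length bins, and protein-coding genes alone.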

Additional observations from a re-analysis of the deposited data

How the results depend on the processing

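No paired analysis was possible because the 4 group values carry no replicate numbers, and leaving out each replicate was not run for the same reason. No member called higher or lower in the FPKM comparisons changed direction under any alternative. With a minimum mean of 5 FPKM, 0 members instead of 1 were called higher for Poldip2-/- in the endothelial layer, and 6 instead of 10 were higher in the medial than the endothelial layer of Poldip2-/- mice, because fewer genes were read. In the medial layer, 1 member (Cx3cl1) instead of 0 was called higher with equal FPKM sums, with the median gene at 0 and with a threshold of 0.58. For the difference between layers, 1 member was higher and 3 were lower with the median gene at 0, and 2 were higher and 3 lower with length centring, against 0 and 5.

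The number of medial members called lower ran from 12 (minimum of 5 FPKM, or length centring) to 16 (pseudocount of 0.1, no minimum, or a threshold of 0.58), against 15. Over all genes, length centring left 1196 lower calls in the medial layer against 1877, no minimum gave 3325, a minimum of 5 FPKM 824 and a threshold of 0.58 3465 lower and 1897 higher calls against 944. In the endothelial layer, a pseudocount of 0.1 gave 94 higher and 253 lower calls, a minimum of 5 FPKM 27 and 89, and a threshold of 0.58 195 and 403, against 50 and 166. Between layers, a minimum of 5 FPKM gave 1244 higher calls in controls against 2704 and 1016 in Poldip2-/- against 1712, and a threshold of 0.58 gave 4216 higher and 2948 lower calls in controls, the latter against 1613, and 3039 lower calls in Poldip2-/- against 1617. Without replicates, sampling error of single values is unknown, and values under about 1.52 FPKM in medial controls lie within the range of olfactory receptor genes.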
